A study of Homo sapiens with 4 samples.

Results

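The comparison described here was made in Z138, an established human mantle cell lymphoma line, between a culture that carried a short hairpin RNA against BTK and a culture that carried the control vector, which the sample title calls sc4. It used 2 of the 4 libraries of the series, 1 per culture. Both were stable lines kept in the same medium, and both had received doxycycline for 48 h before RNA was taken, so the agent was shared by the hairpin and its control. The labels do not say what sequence the control vector expressed, which hairpin sequence was used or whether a stable line was 1 clone or a pool. The other 2 libraries came from Mino, a second mantle cell lymphoma line with the same pair of vectors, and their values are given beside those of Z138. There were no replicates, so no test was made and a difference here is a difference between 2 libraries.

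BTK is a cytoplasmic tyrosine kinase of the TEC family. In B cells it is activated downstream of the B cell receptor by SYK and the SRC-family kinases, and it phosphorylates PLCG2, whose products release calcium and activate protein kinase C, NF-kB and MAP kinases. Mantle cell lymphoma is a B cell malignancy marked by cyclin D1, and drugs that inhibit BTK are used against it. The study's title also names BCL2, which blocks apoptosis, and FBXO10, the substrate receptor of a ubiquitin ligase of the SCF type.

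Values were FPKM, a measure of a gene's fragments that is scaled by the length of its transcript and by the total mapped in the library. Each gene was described by its log2 ratio, log2((hairpin FPKM + 1)/(control FPKM + 1)), a scale that understates the difference of genes with low values. Of 25277 gene symbols, 14549 were above 0 in both Z138 libraries. Of these, 10687 averaged 1 FPKM or more in the pair and are the genes described. Another 1550 symbols were listed at 0 in 1 of the libraries, 404 of them in the control and 1146 in the hairpin library. An exact 0 in this table can be a failed estimate, and these symbols were left out of all ratios. The number of reads behind each library is unknown, so no counting error can be given. FPKM measures a share of the RNA of a culture, so fewer cells of a type and less RNA per cell cannot be told apart.

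Both libraries carried the defining genes of the labelled cell type. All 8 B lymphocyte markers were described, among them CD79A at 589.8 FPKM in the control and 557 in the hairpin library, and PAX5 at 14.5 and 14.9. Of the mantle cell lymphoma markers, CCND1, which encodes cyclin D1, stood at 591 and 600.5 FPKM and SOX11 at 19.8 and 22.1, while CD5 was at 0.0751 and 0.0531, well under 1 FPKM. All 5 plasma cell genes were also described, with a summed level of 1043 FPKM in the control and 866 in the hairpin library. MZB1, a plasma cell chaperone cofactor, was at 715 and 570.5 FPKM. The T lymphocyte markers summed to 4.58 and 4.76 FPKM, with CD2 and TRAT1 at 0 in both, and the myeloid markers to 0.147 and 0.273, with S100A8 and S100A9 at 0 in both. NK cell, erythroid, stromal and epithelial markers did not exceed 1.29 FPKM in either library.

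BTK itself was at 51.0 FPKM in the Z138 control and 12.4 in the hairpin library, which is 24.3% of the control level and a log2 ratio of -1.96. In Mino it was at 37.0 and 9.84 FPKM, a log2 ratio of -1.81. The targeted gene was thus low in both libraries labelled as hairpin. Among the described symbols of Z138 only H3F3A had a lower ratio, and that symbol, a histone gene with near-identical copies elsewhere in the genome, went the opposite way in Mino.

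BCL2 was at 61.2 FPKM in the Z138 control and 54.0 in the hairpin library, a log2 ratio of -0.18. In Mino it was at 491 and 297 FPKM, a log2 ratio of -0.72. The control levels of the lines thus lay far apart, and the ratio was negative in both; the difference between the ratios was not tested. FBXO10 was at 3.36 and 3.15 FPKM in Z138, a log2 ratio of -0.07 that became 0.03 with GC and length trends removed, and at 17.4 and 14.8 in Mino. As deposited, its Z138 ratio lay between the lower quartile of all genes, -0.10, and their median of 0.04. With the trends removed, it lay near the median of 0.03.

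The 10687 log2 ratios had a median of 0.04, with quartiles of -0.10 and 0.17. Of the described symbols 57% were above 0 and 43% below. At least 1.5-fold higher in the hairpin library were 96 symbols (0.898%), and at least 1.5-fold lower were 64 (0.599%). At 2-fold there were 32 higher (0.299%) and 16 lower (0.15%). Both ends were richest in genes with low values: of 2044 symbols with a mean of 2 to 5 FPKM, 1.96% were at least 1.5-fold higher and 1.13% lower, against 0.268% and 0.134% of the 747 symbols at 100 FPKM or more.

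**Figure D1:**
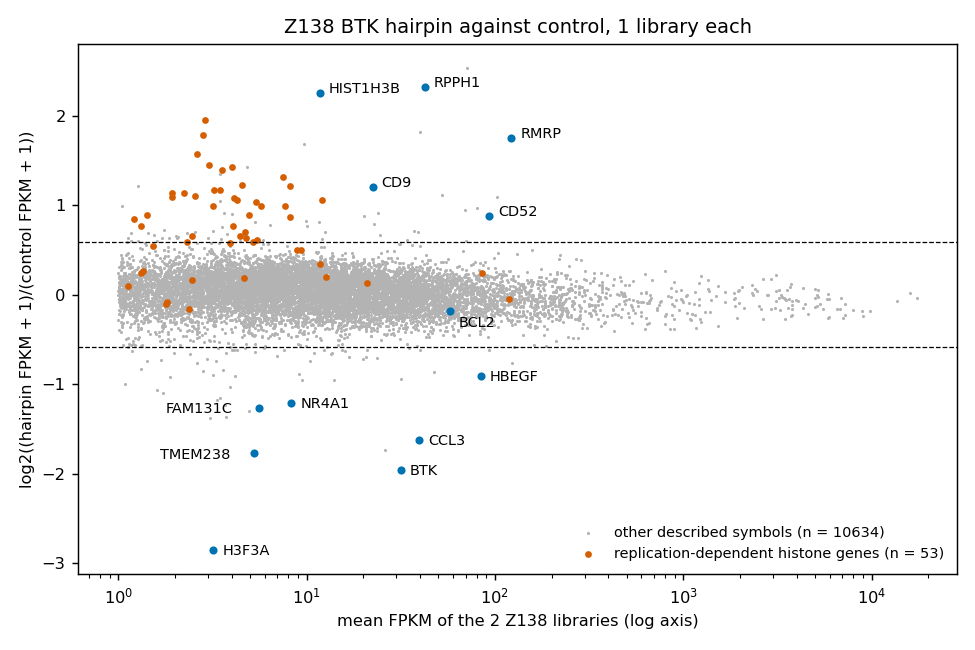
Log2 ratio of each described gene (y axis) against its mean FPKM over the 2 Z138 libraries (x axis, log scale); dashed lines mark 1.5-fold either way, orange points are replication-dependent histone genes and blue points are labelled genes. Most of the 10687 points lie between the dashed lines, 53 histone genes sit mostly above them, and BTK, at -1.96, lies far below.

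The ratios followed the GC content of the transcripts. Spearman's rank correlation across the described genes was -0.58 with GC content and 0.25 with transcript length, given as descriptions, since genes are not independent replicates. In the tenth of genes lowest in GC, from 30.9% to 38.4%, the median ratio was 0.20 and 93.0% of the genes were above 0. In the tenth highest in GC, from 61.7% to 74.7%, the median was -0.11 and 25.7% were above 0. The same genes in Mino had medians of -0.03 and 0.03 in these groups. Medians by chromosome ran from -0.06 to 0.17 over 23 chromosomes, and from 0.02 to 0.07 once GC and length trends had been removed.

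**Figure D2:**
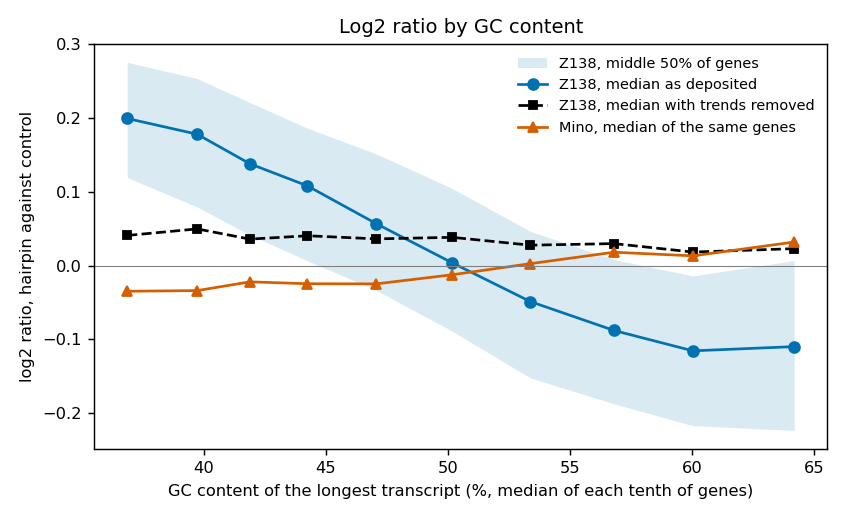
Median log2 ratio (y axis) of the described genes, in 10 equal groups ordered by GC content of the longest transcript (x axis, percent); the blue band holds the middle 50% of Z138 genes. The Z138 median goes from 0.20 to -0.11 from the lowest to the highest GC, while Mino stays between -0.03 and 0.03 and the corrected Z138 median between 0.02 and 0.05.

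Each ratio is therefore also given with smooth trends on GC content and length removed, called the corrected ratio below. The interquartile range narrowed from 0.27 to 0.19. The corrected ratios put 97 genes (0.925%) at least 1.5-fold higher and 55 (0.525%) lower. Of the 96 symbols higher as deposited, 93 had a corrected value and 81 were past 1.5-fold there too. Of the 64 lower, 62 had a corrected value and 43 were past it. The median GC content was 57.4% in the lower group and 53.2% in the higher group, against 48.4% for all described genes. Differences well under 1.5-fold should therefore be read beside the corrected value, which is given below for many lists and some genes. Where a ratio or a pair of levels stands alone, the trends are still in it.

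By kind of transcript the high and low ends were unlike. Of the 96 symbols higher in the hairpin library 36 were replication-dependent histone genes, 17 small noncoding RNAs, 8 readthrough, unnamed or antisense symbols, and 35 other genes. Of the 64 lower, 0 were such histone genes, 6 were small noncoding RNAs, 10 readthrough, unnamed or antisense symbols, and 48 other genes.

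Among genes that averaged 5 FPKM or more, the 15 lowest ratios ran from BTK at -1.96 to PNOC at -0.66, and their genes had varied functions. CCL3, a chemokine that draws T cells and macrophages and is made by stimulated B cells, was at 60.4 FPKM in the control and 19.0 in the hairpin library, a log2 ratio of -1.62 and a corrected ratio of -1.57. In Mino it was at 129.8 and 85.0 FPKM, a log2 ratio of -0.60. NR4A1, an orphan nuclear receptor induced within an hour or so of antigen receptor signalling, was at 12 and 4.62 FPKM in Z138, a log2 ratio of -1.21. Its Mino values were 25.7 and 18.9. For these genes and BTK the hairpin library was the lower one in both lines.

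HBEGF, a membrane-anchored growth factor that binds the EGF receptor, was at 110.3 FPKM in the Z138 control and 58.3 in the hairpin library, a log2 ratio of -0.91. It stood at only 2.94 and 2.31 FPKM in Mino. MFAP4, a glycoprotein of extracellular microfibrils, was at 42.0 and 21.4 FPKM in Z138, a log2 ratio of -0.94, and at 27.6 and 48.0 in Mino, where the hairpin library was the higher one. PNOC, the precursor of the neuropeptide nociceptin, was at 16.8 and 10.3 FPKM.

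TMEM238, a small transmembrane protein, was at 8.69 FPKM in the control and 1.84 in the hairpin library, a log2 ratio of -1.77. Its transcript was 73.7% GC, the range where ratios ran low, and its corrected ratio was -1.68. FAM131C was at 8.35 and 2.89 FPKM, a log2 ratio of -1.26. In Mino both genes had the hairpin library as the higher one, TMEM238 at 6.87 and 9.41 FPKM and FAM131C at 6.80 and 7.97.

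The remaining genes of the 15 lowest had log2 ratios between -0.95 and -0.69. They were NUDT14, a hydrolase of UDP-glucose, at 18.7 and 9.18 FPKM; BEST3, a bestrophin-family anion channel, at 12.1 and 6.07; ADARB1, an adenosine deaminase that edits double-stranded RNA, at 25.02 and 14.8; and TMEM54 at 29.6 and 17.8. FUOM, a fucose mutarotase, was at 20.9 and 12.6 FPKM, RAC3, a small GTPase, at 26.0 and 15.7, and PILRB, an activating immunoglobulin-like receptor, at 8.81 and 5.09. All of these but BEST3 and ADARB1 had transcripts of 59.8% GC or more. With the trends removed, RAC3 and PNOC moved to -0.58 and PILRB to -0.57, just inside 1.5-fold. RGS1, which ends G protein signalling from chemokine receptors, had the opposite history: it was at 15.7 and 10.2 FPKM, a log2 ratio of -0.58, and its corrected ratio of -0.71 put it among the 10 lowest.

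At the high end, 8 of the 15 genes were histone genes, described below, and 7 were other genes. CD9, a tetraspanin that partners with integrins, was at 13.2 FPKM in the control and 31.7 in the hairpin library, a log2 ratio of 1.21 and a corrected ratio of 1.29. In Mino it was at 63.0 and 69.6, a ratio of 0.14. CD52, a short glycoprotein anchored to the lymphocyte membrane and the target of alemtuzumab, was at 65.3 and 121 FPKM in Z138, a log2 ratio of 0.88. PTPRC, which encodes the CD45 phosphatase that acts on SRC-family kinases, was at 16.4 and 29.1 FPKM, a log2 ratio of 0.79. In Mino the hairpin library was the lower one for both, CD52 at 321 and 264 FPKM and PTPRC at 40.0 and 32.3.

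The somatostatin receptor SSTR3 was at 6.86 and 12.9 FPKM, a log2 ratio of 0.83, and TNFRSF19, a receptor of the TNF receptor family, at 3.60 and 7.08. ANXA1, which binds phospholipids in the presence of calcium, was at 4.86 and 10.6 FPKM, a log2 ratio of 0.98, and TIMP1, an inhibitor of matrix metalloproteinases, at 8.19 and 15.1, a ratio of 0.81. ANXA1 and TNFRSF19 were under 0.1 FPKM in both Mino libraries, so Mino gives no second reading of them. FERMT3, or kindlin-3, which activates integrins in blood cells, entered the 10 highest by its corrected ratio of 0.93, with 7.12 FPKM in the control and 12.9 in the hairpin library.

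**Figure D3:**
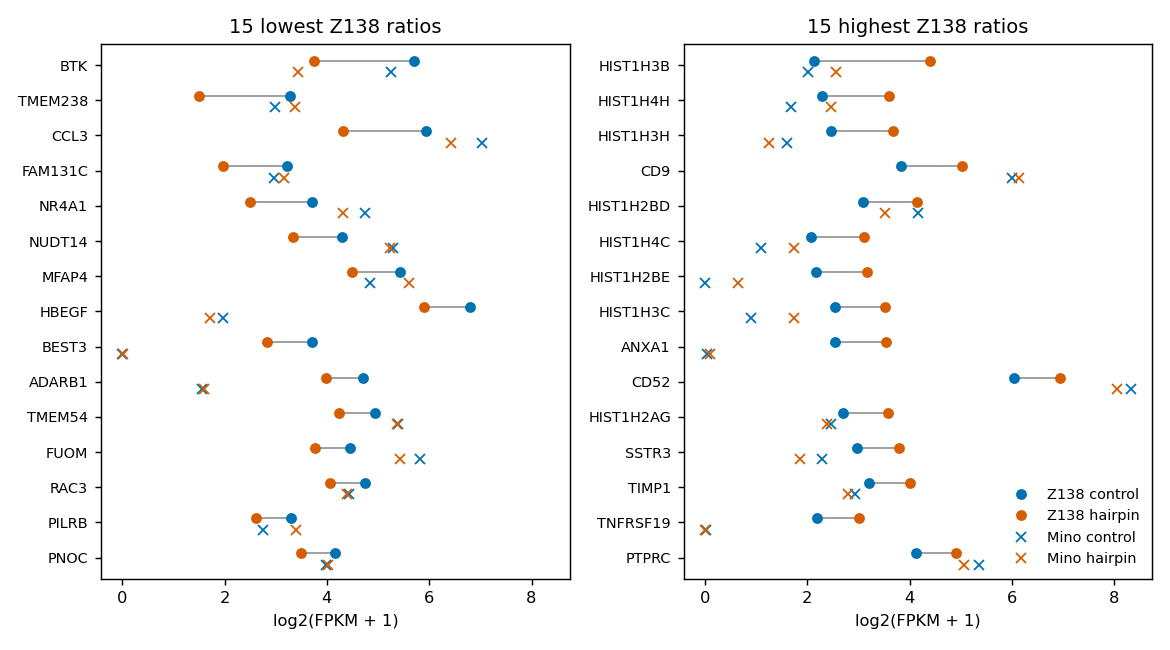
Levels as log2(FPKM + 1) (x axis) of the 15 lowest and 15 highest genes by Z138 ratio (y axis, genes averaging 5 FPKM or more), with circles joined by a line for Z138 and crosses for Mino; blue is control and orange hairpin. BTK is low in both hairpin libraries, whereas HBEGF, BEST3, ADARB1, ANXA1 and TNFRSF19 are near the floor or low in Mino.

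The replication-dependent histone genes were the largest group at the high end. These genes encode the core histones and linker histone H1 that package new DNA, are expressed in S phase, and mostly end in a stem-loop in place of a poly(A) tail. Of 69 listed, 68 were in the table, 12 were at 0 in both Z138 libraries, 1 was at 0 in 1 of them, 2 were under the minimum and 53 were described. Among those 53, 49 were above 0 and 36 were at least 1.5-fold higher, against 0.898% of all described symbols, and 0 were at least 1.5-fold lower. Their median ratio was 0.85, and 0.83 corrected, beside 0.04 over all genes. Without the minimum of 1 FPKM, 55 genes had a median of 0.77. Many of these genes have near-identical copies, so the value of a single gene is uncertain.

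The 5 highest ratios of the H3 class are given here, and the lowest ratio of the class was -0.16. HIST1H3B was at 3.40 FPKM in the control and 20.0 in the hairpin library, a log2 ratio of 2.26. HIST1H3F was at 0.595 and 5.20, HIST1H3J at 0.723 and 4.94, HIST1H3I at 1.17 and 4.93, and HIST1H3H at 4.50 and 11.8. In all of them the hairpin library was at least 2-fold higher, but they were picked by their ratios. HIST1H3F and HIST1H3J reached the minimum mean of 1 FPKM only through the hairpin library. In Mino HIST1H3B was at 3.05 and 4.93 FPKM, and HIST1H3H at 2.05 and 1.38, with the hairpin library the lower one.

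All the histone classes had a positive median. It was 1.09 for the 11 described H3 genes, of which 9 were at least 1.5-fold higher, and 1.06 for the 10 H4 genes, of which 8 were. It was 0.65 for the 16 H2B genes and 0.58 for the 12 H2A genes, with 10 and 6 past 1.5-fold. Every described H2A and H2B gene was above 0. Of the 4 H1 genes 3 were past 1.5-fold: HIST1H1E at 1.51 and 5.61 FPKM, HIST1H1B at 1.76 and 5.21, and HIST1H1D at 1.26 and 3.86.

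Ratios varied widely within the group. HIST1H1C, with the highest level, was at 121 FPKM in the control and 117 in the hairpin library, a log2 ratio of -0.05. HIST1H2BK was at 78.0 and 92.7, a ratio of 0.25, and HIST1H2BH at 19.8 and 21.9, a ratio of 0.14. Small ratios also occurred at low levels, as in HIST1H4A at 1.89 and 1.70 FPKM. Of 46 histone genes with a mean under 10 FPKM, 34 were at least 1.5-fold higher, against 0.666% of the 5102 other genes under that level. Short transcripts were common in the list, 30 of the 53 being under 600 nucleotides. Of 44 other described genes of that length, 3 (6.82%, against 0.898% of all described symbols) were at least 1.5-fold higher and 1 lower. Small noncoding RNAs were left out of both groups of other genes. Of the 51 small noncoding RNAs described, at any length, 17 were at least 1.5-fold higher and 6 lower. The part of transcript length in the histone values was not tested beyond the corrected ratios. Summed over the whole list, FPKM was 366 in the control and 538 in the hairpin library.

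**Figure D4:**
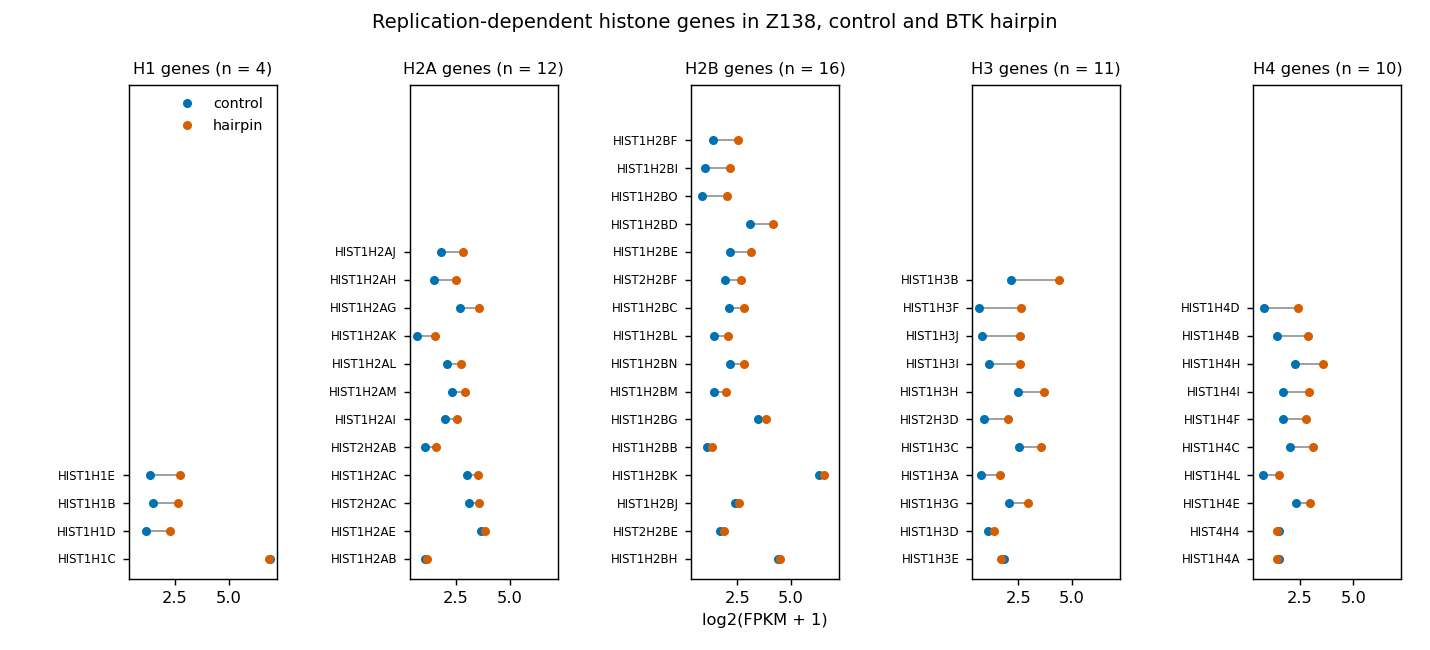
Levels as log2(FPKM + 1) (x axis) of the 53 described replication-dependent histone genes in Z138, by class, with blue for control and orange for hairpin. The orange point lies to the right of the blue one for 49 of the 53 genes, and the exceptions are HIST1H1C, HIST1H3E, HIST1H4A and HIST4H4.

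Genes around the histone group did not share its shift. The 9 described histone variants that have poly(A) tails and are not restricted to S phase had a median of -0.05. H3F3A, at -2.85, was the 1 member past 1.5-fold. Examples were H2AFZ at 551 and 509 FPKM and H3F3B at 367 and 375. The 11 genes that process histone mRNA had a median of 0.10 and a corrected median of 0.04. SLBP, which binds the stem-loop, was at 65.9 and 68.9 FPKM, and NPAT, the activator of histone transcription, at 1.58 and 1.87. DNA replication and S phase genes had a median of -0.02. Of these 37, 18 were above 0, against 57% of all genes, and 0 were past 1.5-fold either way. In Mino the described histone genes of this list were 22 above 0 and 23 below.

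A pair of other RNAs that lack poly(A) tails also had high ratios. RMRP, the RNA of RNase MRP, was at 55.5 FPKM in the control and 189 in the hairpin library, a log2 ratio of 1.75, and RPPH1, the RNA of RNase P, at 13.5 and 71.4, a ratio of 2.32. In Mino they were also higher in the hairpin library, RMRP at 143 and 329 FPKM and RPPH1 at 46.6 and 116. Among protein subunits of these enzymes RPP40 had the highest ratio, at 6.23 and 9.57 FPKM, while POP4 was at 10.02 and 9.50. Of the 51 described small noncoding RNAs, a list that includes this pair, 17 were at least 1.5-fold higher, against 0.898% of all described symbols. Another 6 were at least 1.5-fold lower, against 0.599%. Their median was 0.24 as deposited and 0.06 corrected, with 28 above 0 and 23 below corrected. The list summed to 10918 FPKM in the control and 5027 in the hairpin library. That sum includes symbols left out of the ratios, such as MIR1282 at 5015 FPKM in the control and 0 in the hairpin library. The labels do not state how RNA was selected before library preparation. The part of RNA selection in the histone values was not tested.

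The promoters of 4 of these histone genes are shown because they come from the H1, H3 and H4 classes and each was at least 2-fold higher. Each is the 200 bases before the start of the gene from RefSeq on GRCh38.p14, read 5′ to 3′ on the strand of the gene, with matches to the motifs CCAAT and TATAAA and to TGACGTCA in capitals, on either strand. HIST1H3B (now H3C2) is at chr6:26032100-26032299 on the minus strand and HIST1H4H (H4C8) at chr6:26285535-26285734 on the minus strand. HIST1H3H (H3C10) is at chr6:27809851-27810050 and HIST1H1E (H1-4) at chr6:26156129-26156328, both on the plus strand.
HIST1H3B: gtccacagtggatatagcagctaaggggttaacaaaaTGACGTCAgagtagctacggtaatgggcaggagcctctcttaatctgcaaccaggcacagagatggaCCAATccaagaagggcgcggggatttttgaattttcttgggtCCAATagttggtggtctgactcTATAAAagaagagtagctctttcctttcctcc
HIST1H4H: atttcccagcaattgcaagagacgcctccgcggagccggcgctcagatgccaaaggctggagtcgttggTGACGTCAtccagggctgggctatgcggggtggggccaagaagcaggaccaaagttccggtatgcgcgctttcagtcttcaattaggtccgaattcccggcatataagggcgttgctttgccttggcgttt
HIST1H3H: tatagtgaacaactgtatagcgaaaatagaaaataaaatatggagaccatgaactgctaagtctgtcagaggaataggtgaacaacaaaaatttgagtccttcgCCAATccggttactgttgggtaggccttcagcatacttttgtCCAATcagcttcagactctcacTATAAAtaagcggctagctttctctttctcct
HIST1H1E: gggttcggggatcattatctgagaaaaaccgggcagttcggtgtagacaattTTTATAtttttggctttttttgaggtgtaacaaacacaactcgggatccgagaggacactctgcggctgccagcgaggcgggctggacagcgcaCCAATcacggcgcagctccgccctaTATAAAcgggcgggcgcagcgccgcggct

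In HIST1H3B and HIST1H3H the layout of CCAAT and TATAAA matched: CCAAT began 96 and 54 bases before the start and TATAAA 32 bases before it. HIST1H1E had CCAAT at 54 and TATAAA at 29 bases, and HIST1H4H had neither in this window. CCAAT was found in 38 of 43 histone promoters (88.4%) and in 28.9% of the 27305 promoters in the RefSeq table, TATAAA in 25 (58.1%) against 8.92%, and TGACGTCA, a palindrome, in 7 (16.3%) against 1.68%. CACGTG and TCACCCCAC were searched too and found in 0 of the 43, against 5.62% and 0.293% of all promoters. These are matches of letters in genes chosen for their class, and they describe the windows only.

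Among the genes of the B cell receptor pathway the ratios were small and of both signs. Of 38 listed, 35 were described, with 18 above 0, 17 below and 0 past 1.5-fold in either direction. Over all described symbols, 57% were above 0, 0.898% at least 1.5-fold higher and 0.599% at least 1.5-fold lower. The median was 0.02, and 0.05 corrected. At the receptor, CD79A was at 589.8 and 557 FPKM and CD79B at 271 and 285. The kinases that act before BTK were close to level, SYK at 13.6 FPKM in both libraries and LYN at 25.5 and 24.9. The adaptor BLNK, which brings BTK to its substrate, was at 27.9 and 27.3.

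Below BTK in the pathway, PLCG2, its direct substrate, had the highest ratio of the list, at 11.6 FPKM in the control and 16.0 in the hairpin library, a log2 ratio of 0.44 and a corrected ratio of 0.39. BCL10, of the complex that links the receptor to NF-kB, was at 6.51 and 8.78 FPKM, a ratio of 0.38. Its partner MALT1 was at 13.9 and 16.6. The lowest were SH3BP2, an adaptor, at 6.28 and 4.30 FPKM with a ratio of -0.46, and RASGRP3, which activates RAS on diacylglycerol, at 15.1 and 11.3 with a ratio of -0.39. In Mino PLCG2 had a ratio of -0.20 and RASGRP3 one of -0.36.

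Of 10 described inhibitory coreceptors and their phosphatases, 8 were below 0, against 43% of all described symbols, and 7 were when corrected, against 39.9%. The median was -0.23, or -0.14 corrected, and -0.04 over the 16 members above 0 in both libraries without the minimum of 1 FPKM. CD72 was at 18.9 and 12.02 FPKM, a log2 ratio of -0.61, and FCRL5, an Fc receptor-like protein, at 7.39 and 4.55, a ratio of -0.60. These were the 2 past 1.5-fold lower, though with corrected ratios of -0.46 and -0.55 neither remained past it. CD22 went the other way, at 3.34 and 5.96 FPKM, a log2 ratio of 0.68 and a corrected ratio of 0.79. PTPN6, the SHP-1 phosphatase these receptors recruit, was at 59.3 and 49.2, with a corrected ratio of -0.10. Mino had CD72 lower too, at 34.7 and 21.7 FPKM, and CD22 nearly level at 107 and 102.

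Of the TEC family and known regulators of BTK, 7 were described, 3 above 0 and 4 below, against 57% and 43% of all genes. CAV1, caveolin-1, was at 48.4 and 31.3 FPKM, a log2 ratio of -0.61 and a corrected ratio of -0.64, and was the 1 member past 1.5-fold. The kinase TEC, a relative of BTK, was at 3.16 and 2.10 FPKM, a ratio of -0.43. IBTK, an inhibitor of BTK, was at 7.88 and 9.43.

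The apoptosis genes beside BCL2 were few. Of 4 described pro-survival members 3 were below 0, with a median of -0.23 as deposited and corrected. BCL2L1, which encodes BCL-XL, was at 32.6 and 24.7 FPKM, a log2 ratio of -0.39, and MCL1 at 63.2 and 66.6, a ratio of 0.07. The 11 pro-death genes split 5 above and 6 below as deposited, and 8 above and 3 below corrected. Of all genes 57% and 60.1% were above 0. PMAIP1, or NOXA, which opposes MCL1, was at 204 and 243 FPKM, a ratio of 0.25, and BMF at 27.4 and 33.5, a ratio of 0.28. Around FBXO10, the SCF core genes SKP1, at 67.0 and 71.5 FPKM, and CUL1, at 30.3 and 34.4, had ratios of 0.09 and 0.18. Their corrected ratios were -0.04 and 0.12.

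The targets of NF-kB, described for 15 of 27 listed genes, had a median of 0.01 and a corrected median of 0.08, with 0 past 1.5-fold. NFKBIE, an inhibitor of NF-kB, was at 17.3 and 13.9 FPKM, a ratio of -0.29, and BIRC3, an inhibitor of apoptosis, at 3.74 and 5.18, a ratio of 0.38. NFKBIA was at 79.0 and 77.6. All 15 were below 0 in Mino, with a median of -0.21, and this contrast with Z138 was not tested.

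Of the chemokines and cytokines, 8 of 20 listed were described and 10 were at 0 in both Z138 libraries. CCL3 is given above. CCL4, its neighbour and close relative, was at 7.49 FPKM in the control and 2.45 in the hairpin library, a log2 ratio of -1.30, and in Mino at 82.1 and 51.8, a ratio of -0.65. IL10, an immunosuppressive cytokine that B cells can make, was at 2.73 and 0.747 FPKM, a ratio of -1.09. These 3 were the members past 1.5-fold. CCL5 at 5.65 and 4.20, TNFSF9 at 12.9 and 10.6 and IL32 at 5.62 and 7.48 had smaller ratios of both signs, so the list as a whole, with a median of -0.30 and -0.18 corrected, rests on few genes.

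Early response genes were mixed apart from NR4A1. Of 19 described, 13 were below 0, against 43% of all genes, with a median of -0.11. The corrected median was 0.04, with 12 above 0, against 60.1% of all genes. DUSP2, a phosphatase of nuclear MAP kinases, was at 50.8 and 37.3 FPKM, a log2 ratio of -0.43. EGR1, a zinc finger factor induced by MAP kinases, was at 21.5 and 25.5, a ratio of 0.24, and KLF10 at 9.98 and 14.9, a ratio of 0.54. MYC was at 407 and 439, a ratio of 0.11. In Mino 18 of the 19 were below 0, with EGR1 at 22.8 and 14.98 FPKM and MYC at 63.9 and 46.6.

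Among the genes that damp MAP kinase signalling 9 of 11 were below 0, against 43% of all genes. The median was -0.20, and -0.08 corrected. SPRY2, which restrains RAS activation, was at 4.46 and 1.94 FPKM, a log2 ratio of -0.89, and was the 1 member past 1.5-fold. DUSP5 was at 36.2 and 31.1, with a corrected ratio of -0.07.

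Homing receptors and adhesion genes held members at both ends. Of 20 described, 12 were above 0 as deposited and 15 corrected, against 57% and 60.1% of all genes. The medians were 0.17 and 0.16. After CD9 came ITGB7, the beta chain of the integrin that leads lymphocytes to the gut, at 29.7 and 48.8 FPKM, a log2 ratio of 0.70 and a corrected ratio of 0.84. S1PR4, a sphingosine phosphate receptor, was at 6.34 and 9.09, a ratio of 0.46, and GPR18 at 48.1 and 62.5, a ratio of 0.37. At the low end RGS2, a brake on G protein signalling like RGS1, was at 5.82 and 1.64 FPKM, a ratio of -1.37, and SELPLG, the ligand of P-selectin, at 10.5 and 7.34, a ratio of -0.46. RGS16 of the same family was higher instead, at 25.7 and 33.4. Mino had RGS1 at 15.7 and 10.4 FPKM and ITGB7 at 13.4 and 16.7.

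Genes for cholesterol synthesis and uptake were lower together by small amounts. Of 21 described, 19 were below 0 both as deposited and corrected, against 43% and 39.9% of all genes. The median was -0.22 and -0.15 corrected, and 0 were past 1.5-fold. SQLE, squalene epoxidase, was at 13.97 and 9.70 FPKM, a log2 ratio of -0.48 and a corrected ratio of -0.50. LSS, the next enzyme, was at 17.9 and 12.7, a ratio of -0.46. SREBF2, the transcription factor of the pathway, was at 56.5 and 44.8. MSMO1 was above 0 at 5.64 and 7.05. Mino had 16 of the 21 below 0, with a median of -0.25. Fatty acid synthesis genes did not share this: 6 of 11 were above 0, against 57% of all genes. FASN was at 46.9 and 49.5 FPKM and SCD at 30.3 and 26.9.

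Of 23 glycolysis genes 16 were below 0 as deposited and 13 corrected, against 43% and 39.9% of all genes. The medians were -0.15 and -0.09. Several of the most abundant were lower, among them TPI1 at 893 and 709.9 FPKM, ENO1 at 1194 and 991 and ALDOA at 981 and 816. Their ratios of -0.33, -0.27 and -0.27 shrank to -0.18, -0.17 and -0.14 with the trends removed. Hypoxia targets had a median of -0.06 and -0.08 corrected, with 15 of 22 below 0 corrected, against 39.9% of all genes. P4HA1, a prolyl hydroxylase of collagen, was at 31.0 and 25.8, a corrected ratio of -0.34. Mino had all 23 glycolysis genes below 0, with a median of -0.35.

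The G2 and mitosis genes leaned upward. Of 38 described, 29 were above 0 as deposited and 28 corrected, against 57% and 60.1% of all genes, with medians of 0.15 and 0.09 and 0 past 1.5-fold. Mino had 5 of the 38 above 0 and 33 below, with a median of -0.15, and this contrast was not tested. CENPF, a kinetochore protein, was at 12.6 and 16.9 FPKM, a log2 ratio of 0.40 and a corrected ratio of 0.25. TOP2A, topoisomerase II alpha, was at 49.7 and 60.6, a ratio of 0.28, and AURKB at 88.7 and 79.2, a ratio of -0.16. Of the S phase list E2F1 was lowest, at 53.5 and 39.7 FPKM, a ratio of -0.42. Of the cell cycle brakes, RB1 was at 39.2 and 51.7, a ratio of 0.39, and CDKN1A at 212 and 189, a ratio of -0.16 that was near 0 once corrected.

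**Figure D5:**
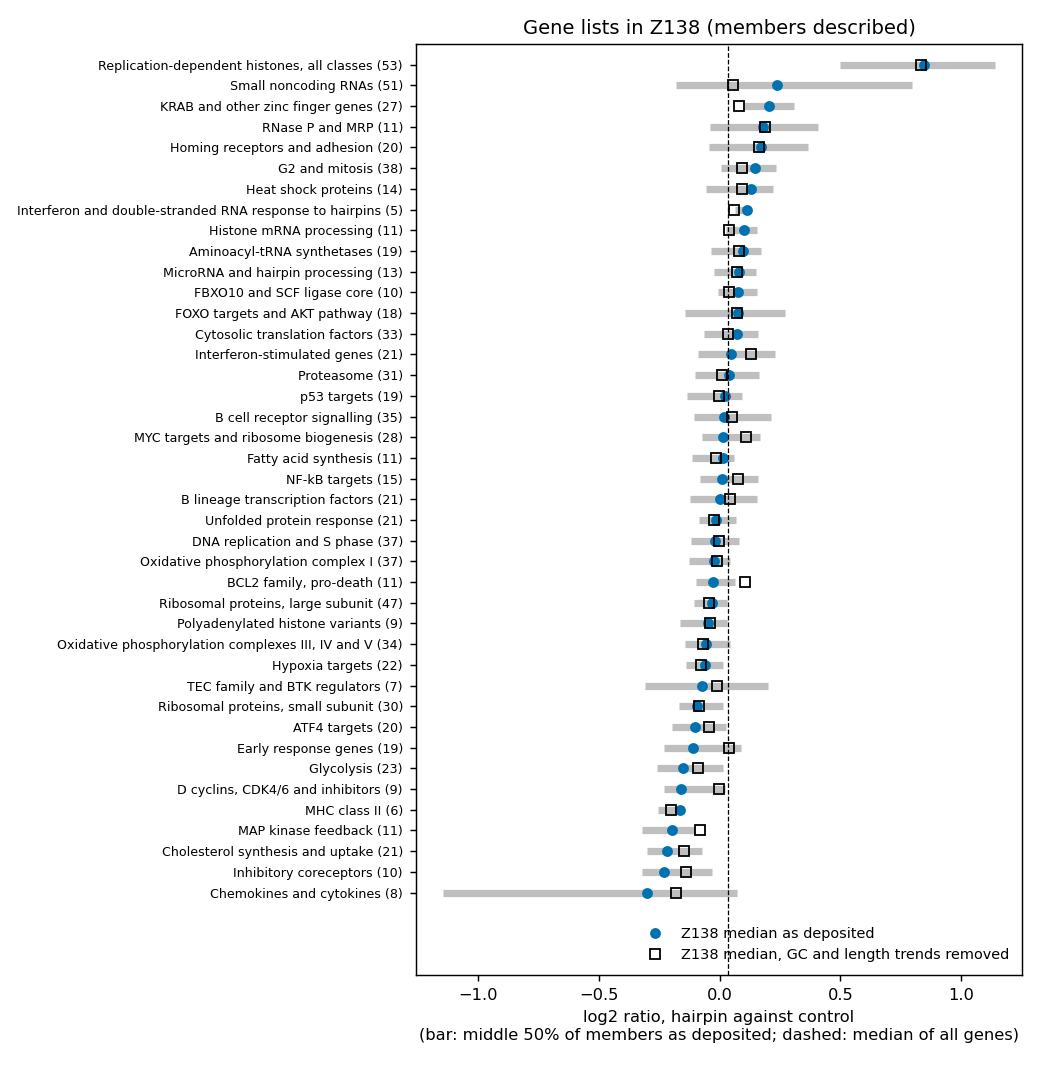
Median log2 ratio (x axis) of each gene list with at least 5 described members (y axis, number described in parentheses, histone classes joined in 1 list), as deposited (filled circle) and with GC and length trends removed (open square); grey bars hold the middle 50% of members and the dashed line is the median of all genes. The joined histone list stands at 0.85, and the medians of the other lists drawn lie between -0.30 and 0.24.

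Stress pathways were near level in Z138. Genes of the unfolded protein response had a median of -0.01, HSPA5, the main chaperone of the endoplasmic reticulum, being at 257 and 285 FPKM. ATF4 targets had a median of -0.10 and -0.04 corrected, with ASNS at 207 and 220 and SLC7A5 at 310.1 and 259. Heat shock genes had a median of 0.13 and 0.09 corrected, with HSPD1 at 308 and 366. In Mino the same lists had medians of 0.32, 0.40 and -0.46, and these differences between the lines were not tested. TXNIP, a negative regulator of glucose uptake, was at 56.4 and 79.4 FPKM in Z138 and at 111 and 22.2 in Mino. Targets of p53 had a median of 0.02, with MDM2 at 17.7 and 20.1.

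The machinery of translation and respiration showed narrow shifts. Of 47 large-subunit ribosomal protein genes 33 were below 0, and of 30 small-subunit genes 21 were, against 43% of all genes. The medians were -0.03 and -0.09. Corrected, 29 and 26 were below 0, against 39.9% of all genes. The large-subunit median became 0.01 when libraries were scaled to the same sum without ribosomal protein genes. That scaling also raised the median of all genes, to 0.07. Genes of ribosome biogenesis and other MYC targets had a median of 0.01 and a corrected median of 0.11. Corrected, 23 of 28 were above 0, against 60.1% of all genes. NOP58, a protein of box C/D particles, was at 42.1 and 53.9 FPKM, a ratio of 0.35. Complex I genes had a median of -0.02, those of complexes III, IV and V one of -0.06, and the proteasome one of 0.04. Zinc finger genes, whose transcripts had a median GC content of 37.3%, had a median of 0.21 as deposited and 0.08 corrected. GC and length trends were removed together, so the part of each in this move was not tested.

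B cell identity factors were mixed, with 11 of 21 above 0, against 57% of all genes, and a median of 0.00. TCF4, an E protein, was at 7.68 and 11.3 FPKM, a log2 ratio of 0.50 and a corrected ratio of 0.34, and IKZF1, Ikaros, at 25.4 and 20.1, a ratio of -0.33. Of MHC class II genes 6 of 13 were described and 5 of these were below 0, against 43% of all genes. CIITA, the master activator of the class, was at 18.1 and 13.5 FPKM, a ratio of -0.40, and CD74, the invariant chain, was at 2785 and 2786. Interferon-stimulated genes had a median of 0.05, and 14 of 21 were above 0, against 57% of all genes. The genes that sense double-stranded RNA had 4 of 5 described members above 0, with EIF2AK2, the kinase PKR, at 2.39 and 2.69 FPKM, and 0 past 1.5-fold.

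Small noncoding RNAs were poorly measured. Of 2055 symbols 1962 were at 0 in both Z138 libraries, 39 at 0 in 1 of them and 51 described, of which 17 were at least 1.5-fold higher and 6 lower. Their median of 0.24 went to 0.06 with the trends removed. Among all symbols at 0 in 1 Z138 library, 39 reached at least 5 FPKM in the other, and 34 of these were small RNAs, 27 at 0 in the hairpin library and 7 in the control. The other 5 were protein-coding and are listed without a ratio: EEF1A1 at 0 in the control and 6911 in the hairpin library, ARPC4 at 0 and 53.5, TADA3 at 0 and 44.6, TGFBRAP1 at 0 and 8.73, and CNBP at 140.3 and 0. EEF1A1 encodes a translation elongation factor that every cell uses, and both Mino libraries had it, at 6404 and 6976 FPKM.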

How the data were processed

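RNA from 4 cultures had been sequenced, and the 2 of Z138 are compared here. A single table of FPKM, with a column per library and a row per gene symbol, was deposited by the authors, per the file headers. The submitters' processing notes name TopHat and hg19 without versions. The sources used here do not give the program and annotation behind FPKM.

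Ratios were log2((hairpin + 1)/(control + 1)), a pseudocount of 1 FPKM, for symbols above 0 in both Z138 libraries with a mean of at least 1 FPKM. With 1 library per group no test was run, and genes were counted at 1.5-fold and 2-fold. Transcript GC content and length came from the longest GENCODE release 29 transcript (GRCh38) of each symbol. They were found for 10484 described symbols (98.1%), 438 of them through another symbol. Corrected ratios had restricted cubic spline trends on both removed, with ratios limited to 1 log2 unit either way in the fit and the median put back. The step was tried on simulated ratios with a GC trend but no length trend, so its length part was not tested.

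Named genes were BTK, BCL2, FBXO10, the 15 highest and lowest ratios and the 10 highest and lowest corrected ratios among genes averaging 5 FPKM or more (no small RNA, unnamed, antisense or readthrough symbols), and up to 6 members per list by size plus those that define its roles. A few members under 5 FPKM, TXNIP and the members of the histone list were named after their values were seen. The 54 gene lists, 9 of them cell type markers, and the genes to describe were chosen with earlier results of these data known; BTK is in no list. Other pseudocounts, low-value limits, scalings and the treatment of zeros were tried. Python 3.11.15 was used with numpy 2.4.6, pandas 2.3.3 and scipy 1.17.1.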

Additional observations from a re-analysis of the deposited data

Results flagged for a closer look

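Among the named genes and the members of the gene lists, the Z138 and Mino pairs went past 1.5-fold in opposite directions for 6 genes. The other described symbols were not searched for this. With 1 pair of libraries per line the difference was not tested. The log2 ratio of H3F3A was -2.85 in Z138 and 3.09 in Mino. This histone variant has near-identical copies, and its value is uncertain. MFAP4 had -0.94 in Z138 and 0.78 in Mino, and PILRB had -0.69 and 0.64. The histone genes HIST1H2BD, with 1.06 and -0.64, HIST1H2BN, with 0.64 and -0.97, and HIST1H2AL, with 0.66 and -0.64, were higher in the Z138 hairpin library and lower in the Mino one.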

How the results depend on the processing

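The counts of genes past a fold depended on how low values were treated. A pseudocount of 0.1 FPKM gave 176 genes at least 1.5-fold higher and 128 lower, and 51 and 31 at 2-fold. A pseudocount of 5 FPKM gave 38 and 22, and 9 and 5. A minimum mean of 5 FPKM gave 38 and 32, and 13 and 6. Keeping symbols at 0 in 1 library gave 44 genes at least 2-fold lower. The median of the histone genes was 1.06, 0.41 and 0.61 under the first 3 of these settings, and that of homing receptors and adhesion genes 0.0668 with a pseudocount of 5. Among list medians of at least 0.1 in size, 4 changed sign. Early response genes went to 0.0402 with trends removed, chemokines and cytokines to 0.0207 and double-stranded RNA response genes to -0.0339 among genes averaging 5 FPKM or more, and small RNAs to -0.0122 with zeros kept. Medians nearer 0 changed sign in another 11 recomputations, for example B cell receptor genes to -0.01 and interferon-stimulated genes to -0.07 at that minimum, and pro-death genes to 0.10 with trends removed. With these 11 included, list medians stayed within 0.1 in 347 recomputations and moved further in 25 without a sign change of the kind above. Single genes were recomputed for 34 symbols: BTK, BCL2, FBXO10 and the genes ranked highest and lowest. Their ratios stayed within 0.2 in 248 recomputations and moved further in 23. Among these 34 the sign changed for FBXO10 alone, from -0.07 to 0.03 with trends removed. Members named from the lists were not part of this, and some changed sign with trends removed. For example, SKP1 went from 0.09 to -0.04 and CD79A from -0.08 to 0.05. No other scaling shifted the median of all genes by more than 0.04. No paired analysis was possible because the comparison within Z138 has 1 library per vector. Depth is unknown, and each value rests on 1 culture.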
